A study of Mus musculus with 18 samples.

Results

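The genes described here serve the production of nitric oxide, the use of its substrate arginine and the synthesis of its cofactor tetrahydrobiopterin. They were chosen by name as Nos2, Slc7a2, Ass1, Arg1, Arg2, Odc1, Gch1, Spr and Qdpr, and the platform annotation assigned 18 of the 45037 non-control probe sets to these 9 genes. Of these probe sets 13 passed a filter on low signal, which kept those reaching the median of the array on 3 or more of the 18 arrays. That left 7 of the 9 genes among the 11547 tested, since neither Arg1 nor Ass1 had a probe set of its own that passed.

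The samples were RAW264.7 cells, a mouse macrophage line. The Fraction group received 10 ug/mL of a sub-fraction made from St John's wort (Hypericum perforatum). The 4CS group, named for a 4-component system, received 0.03 uM pseudohypericin, 0.2 uM chlorogenic acid, 0.08 uM quercetin and 0.07 uM amentoflavone, and the Media+DMSO group received the solvent alone at 0.1%. Each treatment was given without LPS (lipopolysaccharide, a bacterial ligand of Toll-like receptor 4) or with 10 ug/mL LPS for 8 h, which gave 6 groups of 3 arrays. All cells were treated in the dark and then exposed to ambient light for 30 min. All values come from 1 line, so they describe this line and not primary macrophages. Whether arrays of the same group stem from separate cultures is not in the labels, so the p-values reflect only how far these samples spread, and that spread may be technical.

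Inducible nitric oxide synthase, encoded by Nos2, makes nitric oxide and citrulline from arginine and needs tetrahydrobiopterin to do so. Cationic transporters bring arginine into the cell, and arginases compete for it by splitting it into urea and ornithine, from which ornithine decarboxylase makes putrescine, the first of the polyamines. GTP cyclohydrolase 1, encoded by Gch1, catalyses the rate-limiting step of tetrahydrobiopterin synthesis, which sepiapterin reductase completes and dihydropteridine reductase sustains by recycling. Mouse macrophages are known to switch on Nos2 in answer to LPS.

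Signals are linear intensities scaled on each array by the authors. Array medians ranged between 52.1 and 66.8, and correlations between arrays of 1 group between 0.970 and 0.979. The 8 macrophage markers examined, Csf1r, Cd68, Lyz2 and Adgre1 among them, reached the array median on all 18 arrays. Of 19 markers of other cell types 6 passed the filter and none reached the median on every array. In bulk RNA, fewer cells of a type and less RNA per cell cannot be told apart. Differences are log2 differences of group means ± standard error from limma, with p-values adjusted by the Benjamini-Hochberg method over all tested genes and called under 0.05. Where a group lay under the array median on all 3 of its arrays, its fold is a lower bound taken against that median.

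The RefSeq promoter table (GRCm38.p6) held 5 of the 9 genes, namely Gch1, Odc1, Spr, Qdpr and Ass1. Upstream sequences of 2 of them are shown because without LPS Gch1 had the largest Fraction difference among the tested genes of the set and Odc1 had one of the smallest. Both run over the 250 bases before the annotated start, 5′ to 3′ on the gene's strand. Gch1 lies at chr14:47189414-47189663 on the minus strand and Odc1 at chr12:17544623-17544872 on the plus strand. Capitals mark TGACG, the core of a cAMP response element, and CCAAT, the CCAAT box, both of which were searched on both strands after the sequences had been read.
Gch1: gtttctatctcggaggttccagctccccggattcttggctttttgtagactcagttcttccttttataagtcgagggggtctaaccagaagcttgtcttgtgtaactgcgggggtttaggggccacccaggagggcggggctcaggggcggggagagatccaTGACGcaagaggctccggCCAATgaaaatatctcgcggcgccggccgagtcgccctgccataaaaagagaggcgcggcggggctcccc
Odc1: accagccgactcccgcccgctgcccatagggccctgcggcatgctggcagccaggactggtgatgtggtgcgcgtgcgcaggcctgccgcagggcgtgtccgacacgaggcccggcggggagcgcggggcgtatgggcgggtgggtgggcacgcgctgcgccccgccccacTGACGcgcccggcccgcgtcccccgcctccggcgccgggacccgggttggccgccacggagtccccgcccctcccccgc
In Gch1, TGACG stands 88 to 84 and CCAAT 70 to 66 bases before the start. In Odc1, TGACG stands 79 to 75 bases before the start. Of 32851 promoter windows of this length 17.8% hold TGACG and 33.8% hold CCAAT. Neither sequence holds the NF-kB motif (0.98% of windows), the interferon-stimulated response element (2.98%), TTCNNNGAA of the GAS element (7.02%), CACGTG of the E-box (6.02%), the full element TGACGTCA (1.55%) or TGATGNAA of ATF4 with C/EBP (3.45%). Among the other 3, Ass1 holds CACGTG 36 to 31 bases before its start, Qdpr holds CCAAT on the opposite strand at 244 to 240 and 65 to 61 bases, and Spr holds none of these motifs. A match describes the letters alone.

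On the probe set that stood for each gene, LPS raised the synthase, the mitochondrial arginase, the first biopterin enzyme and ornithine decarboxylase in all 3 treatments. Not all of these calls were firm. That of Gch1 in Fraction cells was lost under 4 of 17 alternative settings, and its second probe set gave -0.17. The call of Odc1 in 4CS cells was lost under 10 of 17, and that of Arg2 in 4CS cells under 4 of 16. With LPS in Fraction cells, 5 tested genes rose and 1 fell of 7, where 37.3% of all tested genes were called (11.5% higher, 25.8% lower). With LPS in 4CS cells 5 rose and none fell, where 24.6% of all genes were called (8.32% higher, 16.3% lower). With LPS in Media+DMSO cells 5 rose and 1 fell, where 31.9% of all genes were called (10.1% higher, 21.8% lower). The median difference over the 7 was 0.40, 0.99 and 1.46 in Fraction, 4CS and Media+DMSO cells, beside -0.11, -0.07 and -0.07 over all tested genes. Slc7a2 passed the filter only through arrays with LPS, so these counts are no support for a response of the set as a whole. When each array was centred on its median, the median difference of all tested genes was 0.05 in both Fraction and Media+DMSO cells and 0.02 in 4CS cells, and the genes of the set then split into 5 higher and 0 lower in every treatment.

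Nos2 stood apart by LPS state. Its signal was 412, 608 and 334 in Fraction+LPS, 337, 399 and 345 in 4CS+LPS, and 261, 719.6 and 463 in Media+DMSO+LPS. Without LPS it was 132, 98.4 and 53.0 in Fraction, 51.1, 75.2 and 9.07 in 4CS, and 50.2, 85.6 and 40.6 in Media+DMSO. Every array with LPS lay above every array without it, while the 3 treatments overlapped within each LPS state. LPS raised Nos2 by 2.31 ± 0.56 (4.95-fold, limma adjusted p = 0.00282) in Fraction cells, 3.46 ± 0.56 (11-fold, adjusted p = 1.18e-04) in 4CS cells and 2.99 ± 0.56 (7.92-fold, adjusted p = 3.67e-04) in Media+DMSO cells. The value in 4CS cells rests in part on the third 4CS array, at 9.07 the lowest of all, and was 2.53 without it (adjusted p = 2.24e-04) and 4.06 without the second. Without LPS, Nos2 lay under the array median on 1 of 3 Fraction, 2 of 3 4CS and 2 of 3 Media+DMSO arrays, so the folds rest on low signals. The LPS difference in Media+DMSO cells was not called different from that in Fraction cells (interaction -0.68, limma adjusted p = 0.781) or 4CS cells (0.47, adjusted p = 0.999).

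The Fraction did not shift Nos2 by an amount these arrays could resolve. With LPS the difference between Fraction and Media+DMSO was -0.02, with a 95% interval of -1.18 to 1.15 (limma adjusted p = 0.987). Without LPS it was 0.66 (interval -0.50 to 1.83, adjusted p = 0.409). For 4CS against Media+DMSO the differences were -0.30 with LPS (interval -1.47 to 0.86) and -0.77 without (interval -1.94 to 0.39). Without the third 4CS array the value without LPS was 0.15, and without the second it was -1.38. The first Media+DMSO+LPS array had the lowest Nos2 signal of the 9 arrays with LPS, and without it the Fraction difference with LPS was -0.40 (adjusted p = 0.703). The Fraction interval with LPS spans both a doubling and a halving of the signal, so it does not show that the treatments left Nos2 alike.

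Slc7a2 encodes the cationic transporter CAT2, which carries arginine into LPS-treated macrophages. On the probe set that passed the filter the treatments separated once LPS was present, though neither difference from Media+DMSO was called. Its signal was 294, 232 and 164 in Fraction+LPS, 83.2, 71.3 and 56.8 in 4CS+LPS, and 121, 137 and 107 in Media+DMSO+LPS. Without LPS it was 5.71, 24.1 and 46.5 in Fraction, 1.86, 5.19 and 7.09 in 4CS, and 2.46, 33.1 and 37.9 in Media+DMSO, under the array median on all 9 arrays. With LPS the 3 treatments did not overlap, with Fraction highest and 4CS lowest. Of all tested genes, 36.1% did not overlap between Fraction and Media+DMSO with LPS, and 12.6% between 4CS and Media+DMSO with LPS. The probe set passed the filter only through arrays with LPS, so the test of LPS on it was not independent of the filter. The LPS difference was 3.59 ± 0.87 (at least 3.70-fold, limma adjusted p = 0.0029) in Fraction cells, 4.09 ± 0.87 (at least 1.16-fold, adjusted p = 0.00157) in 4CS cells and 3.06 ± 0.87 (at least 2.19-fold, adjusted p = 0.0107) in Media+DMSO cells. Without the first Media+DMSO array, whose signal of 2.46 was the lowest of that group, the last value was 1.77 (adjusted p = 0.0723). In Fraction cells the value was 2.74 without the first Fraction array (adjusted p = 0.0222) and 4.25 without the third. In a fit with no filter on low values the differences were the same and the adjusted p-values were 0.00354, 0.00186 and 0.0139 in Fraction, 4CS and Media+DMSO cells. In 4CS cells the call was lost when signals under the array median were set to it (0.29, adjusted p = 0.273).

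Neither treatment difference in Slc7a2 with LPS passed the test that pools the spread over all groups. Fraction+LPS exceeded Media+DMSO+LPS by 0.88 (1.85-fold, interval -0.93 to 2.70, limma adjusted p = 0.517), and 4CS+LPS differed from it by -0.80 (interval -2.62 to 1.02, adjusted p = 0.834). The standard deviation on the log2 scale was 0.42, 0.28 and 0.18 in Fraction+LPS, 4CS+LPS and Media+DMSO+LPS, against 1.55, 1.01 and 2.22 in the same treatments without LPS. When only the arrays of the compared groups entered the fit, the Fraction difference with LPS was called (0.88, adjusted p = 0.0254), as it was when signals under the array median were set to it (0.88, adjusted p = 0.00118). The other 3 probe sets of Slc7a2 lay under the array median on all 18 arrays, and on each of them Fraction+LPS overlapped Media+DMSO+LPS.

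**Figure D1:**
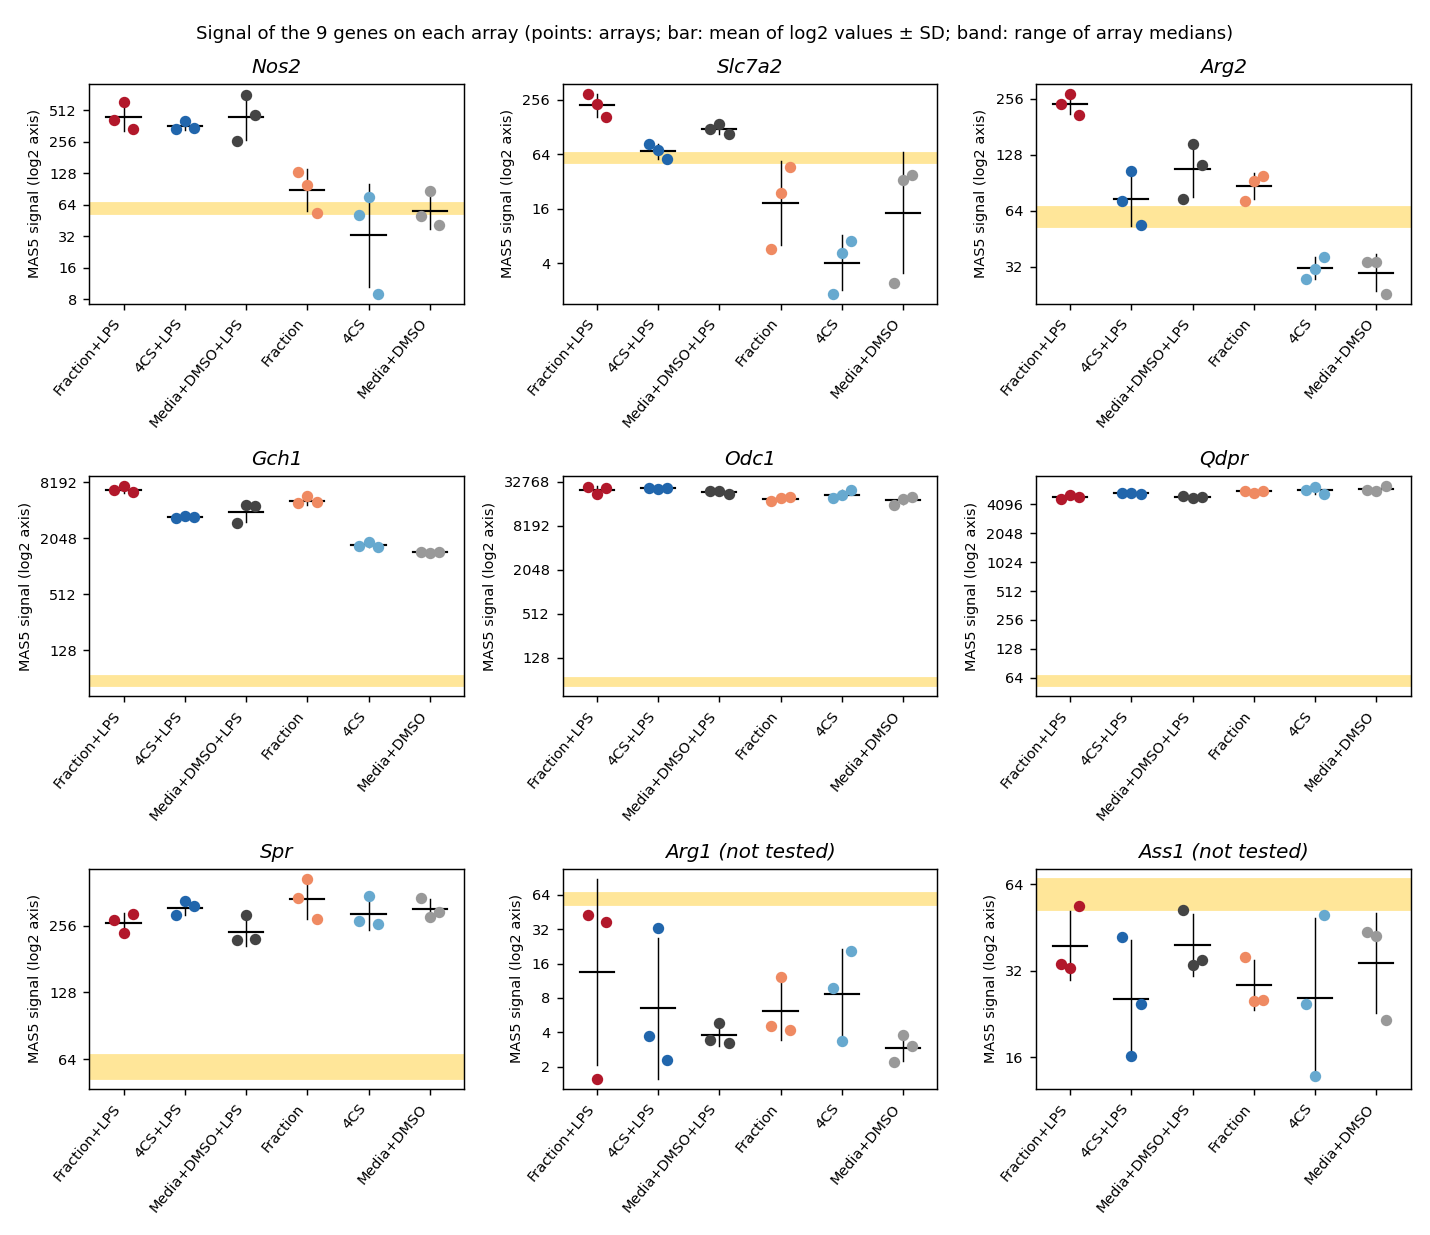
Signal of 1 probe set for each of the 9 genes, on log2 axes, by group. Points are single arrays, horizontal bars are means of the 3 log2 values with vertical lines for the SD, and the band is the range of array medians (52.1 to 66.8). Nos2 separates by LPS, Gch1 and Arg2 also by the Fraction, while Spr and Qdpr stay within narrow ranges (221 to 414 and 4617 to 6338).

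Ass1 and Arg1, for argininosuccinate synthase, which rebuilds arginine from citrulline, and the cytosolic arginase of liver and alternatively activated macrophages, could not be given a level of their own. The probe set annotated to Ass1 alone gave 13.8 to 53.8 over the 18 arrays and that of Arg1 gave 1.57 to 42.8, both under the array median throughout. In a fit without the filter neither was called in any of the 11 comparisons. A further probe set was annotated to both Ass1 and Gm5424 and can be credited to neither. It gave 4.52 to 92.6, passed the filter on 3 arrays with LPS and was not called in any comparison.

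Arg2, the mitochondrial arginase, was higher with LPS and higher with the Fraction. Its signal was 240.5, 272 and 210.4 in Fraction+LPS, 72.2, 105 and 53.3 in 4CS+LPS, and 73.9, 146 and 112 in Media+DMSO+LPS. Without LPS it was 72.3, 92.3 and 98.1 in Fraction, 27.5, 30.9 and 36.0 in 4CS, and 33.8, 34 and 22.9 in Media+DMSO. Fraction+LPS lay above every other array, and Fraction cells without LPS overlapped the Media+DMSO and 4CS cells that had received it. LPS raised Arg2 by 1.46 ± 0.32 (2.76-fold, limma adjusted p = 0.00108) in Fraction cells, 1.24 ± 0.32 (at least 1.24-fold, adjusted p = 0.00642) in 4CS cells and 1.84 ± 0.32 (at least 1.93-fold, adjusted p = 1.58e-04) in Media+DMSO cells. In 4CS cells the call was lost when low signals were set to the array median (0.40, adjusted p = 0.2) and without the second 4CS+LPS array, at 105 the highest of its group (0.99, adjusted p = 0.0514). The same call was lost when only the compared groups were fitted and without the 6 arrays numbered 1.

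With the Fraction, 2 of the 7 tested genes rose and none fell against Media+DMSO in either LPS state, namely Arg2 and Gch1. That is near the share of all tested genes called, 31.2% without LPS (15.9% higher, 15.3% lower) and 23.8% with it (11.1% higher, 12.7% lower). The median difference of the 7 was 0.35 without LPS and 0.13 with it, against 0.02 and -0.02 over all tested genes. Arg2 rose with the Fraction by 1.55 ± 0.32 (at least 1.57-fold, interval 0.89 to 2.20, limma adjusted p = 8.72e-04) without LPS and by 1.17 ± 0.32 (2.25-fold, interval 0.51 to 1.83, adjusted p = 0.0103) with LPS. The call with LPS leaned on the first Media+DMSO+LPS array, at 73.9 the lowest of its group, and without that array the difference was 0.90 (adjusted p = 0.0629). This call was also lost without the 6 arrays numbered 1 (limma adjusted p = 0.15).

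Gch1 had the smallest p for the Fraction among the genes of the set, in both LPS states. Its signal was 6736, 7458 and 6416 in Fraction+LPS, 3356, 3586 and 3471 in 4CS+LPS, and 2957, 4742 and 4519 in Media+DMSO+LPS. Without LPS it was 4876, 5862 and 5021 in Fraction, 1696, 1869 and 1665 in 4CS, and 1458, 1426 and 1449.7 in Media+DMSO. Fraction cells without LPS lay above every Media+DMSO and 4CS array, those with LPS included. The Fraction raised Gch1 by 1.86 ± 0.13 (3.62-fold, interval 1.59 to 2.12, limma adjusted p = 2.58e-09) without LPS and by 0.78 ± 0.13 (1.72-fold, interval 0.52 to 1.05, adjusted p = 1.72e-04) with LPS.

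The rise of Gch1 with LPS was smaller in Fraction cells. LPS raised Gch1 by 0.39 ± 0.13 (1.31-fold, limma adjusted p = 0.021) in Fraction cells, 0.99 ± 0.13 (1.99-fold, adjusted p = 8.81e-06) in 4CS cells and 1.46 ± 0.13 (2.76-fold, adjusted p = 5.03e-08) in Media+DMSO cells. The LPS difference in Fraction cells minus that in Media+DMSO cells was -1.08 ± 0.18 (interval -1.45 to -0.70, adjusted p = 0.00291), and Gch1 was the 1 gene of 7 called in this interaction, where 2.14% of all tested genes were called (0.892% higher, 1.25% lower). Without the first Media+DMSO+LPS array, at 2957 the lowest of its group, it was -1.29 (adjusted p = 5.15e-06). The small rise in Fraction cells was not called under quantile normalization (0.26, adjusted p = 0.104), nor without the first or the third Fraction array or the second Fraction+LPS array (0.33 to 0.36, adjusted p = 0.0646 to 0.0864).

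**Figure D2:**
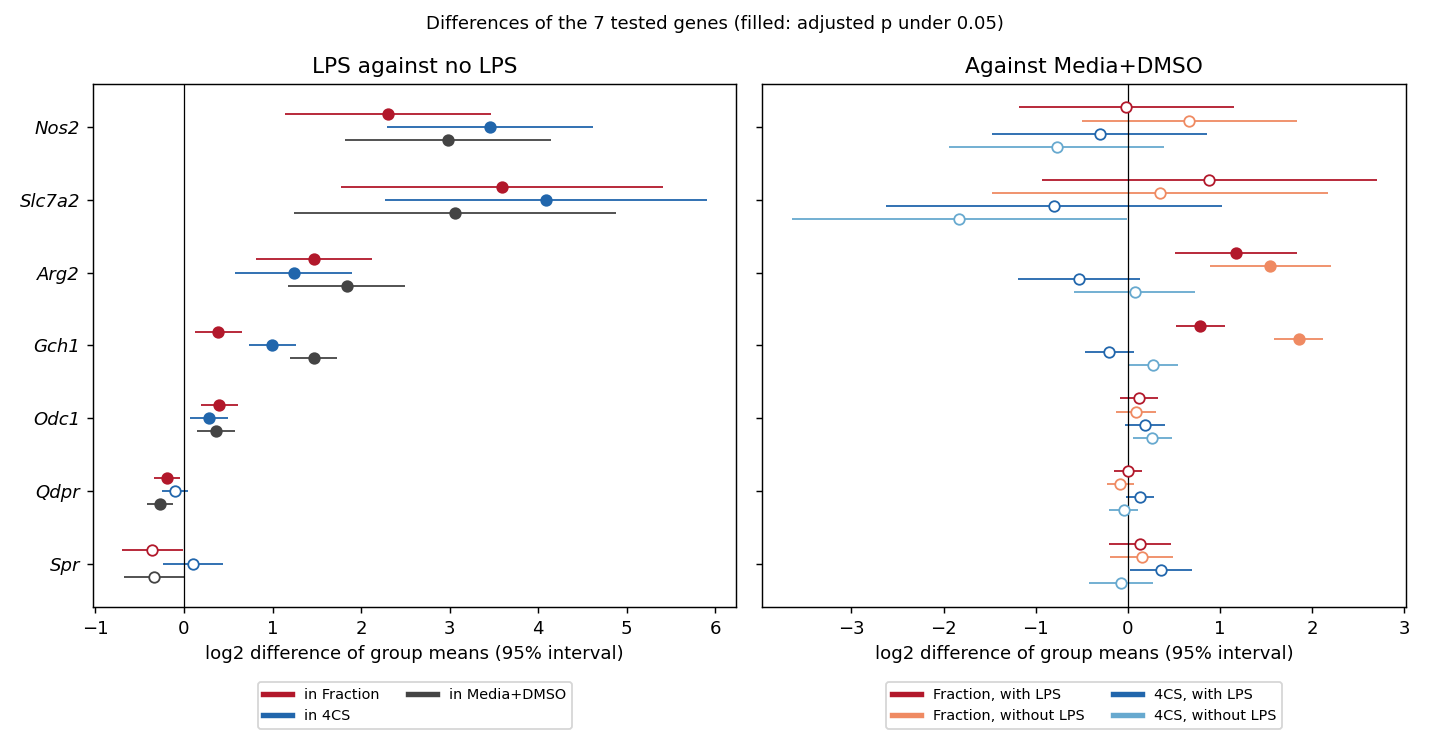
Log2 differences of group means with 95% intervals for the 7 tested genes, LPS against no LPS in each treatment on the left, and Fraction and 4CS against Media+DMSO on the right. Filled points were called. Gch1 and Arg2 are the only genes with filled points on the right, and the Gch1 difference with LPS is smallest in Fraction cells (0.39), followed by 4CS (0.99) and Media+DMSO cells (1.46).

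A second probe set of Gch1 gave a larger treatment difference. Its signal was 884, 1020.2 and 881 in Fraction+LPS and 316, 436 and 328 in Media+DMSO+LPS, and 1155, 1162 and 844 in Fraction and 109.7, 181 and 133 in Media+DMSO. The 2 Fraction groups overlapped each other and lay above all Media+DMSO arrays. In a fit of all kept probe sets, the Fraction raised it by 2.92 ± 0.17 without LPS and by 1.38 ± 0.17 with LPS, and LPS in Fraction cells gave -0.17 ± 0.17 (limma adjusted p = 0.503). The interaction was -1.54 ± 0.24 (adjusted p = 0.00359). The second probe set of Arg2 lay under the array median on all 3 Media+DMSO arrays and 2 of the 3 Fraction arrays without LPS, so no fold is given there. The Fraction difference without LPS was 2.16 ± 0.69 and called (limma adjusted p = 0.0267), though most of its signals lay under the median. With LPS this probe set read 194, 274 and 170 in Fraction and 66, 113 and 75 in Media+DMSO cells, a difference of 1.34 ± 0.69 (adjusted p = 0.198). Against 4CS its Fraction difference was 1.70 ± 0.69 without LPS, not called (limma adjusted p = 0.079), and 2.31 ± 0.69 with LPS, called (adjusted p = 0.02). On the same probe set the LPS difference in 4CS cells was 1.82 ± 0.69 and not called (adjusted p = 0.0748).

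**Figure D3:**
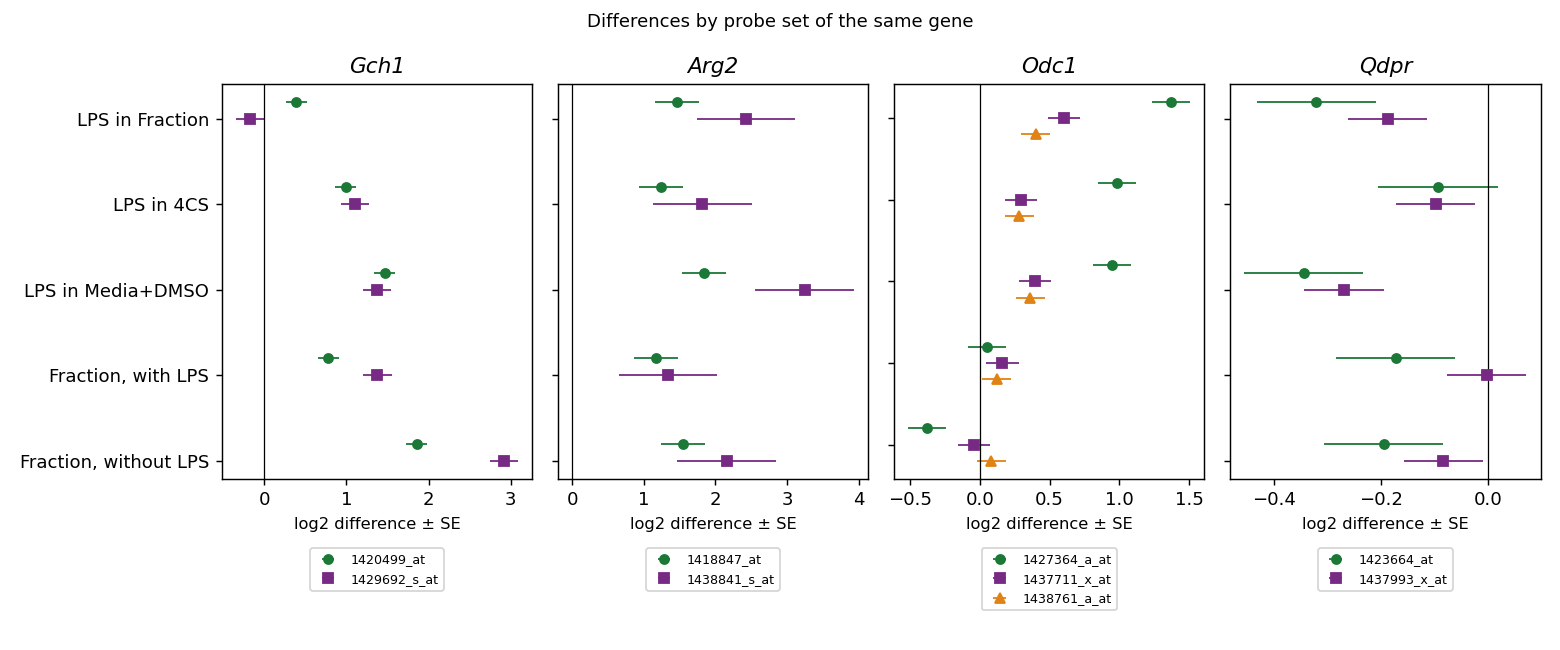
Log2 differences ± standard error for each kept probe set of the 4 genes that had more than 1, in 5 comparisons. Both Gch1 probe sets are higher with the Fraction (1.86 and 2.92 without LPS) and differ on LPS within Fraction cells (0.39 and -0.17), and 1 Odc1 probe set shows larger LPS differences (0.95 to 1.37) than the other 2.

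Of the later biopterin enzymes, Spr, sepiapterin reductase, was called in no comparison. Its signal was 270, 236 and 288 in Fraction+LPS, 286, 332 and 313 in 4CS+LPS, 221, 285 and 223 in Media+DMSO+LPS, 340, 414 and 274 in Fraction, 268, 347 and 259 in 4CS, and 341, 279 and 295 in Media+DMSO. Its differences with LPS were -0.36, 0.10 and -0.34 in Fraction, 4CS and Media+DMSO cells. Qdpr, dihydropteridine reductase, fell slightly with LPS. It gave 4617, 5168 and 4931 in Fraction+LPS and 5011, 4764 and 4947 in Media+DMSO+LPS, against 5700, 5344 and 5704 in Fraction and 5726, 5687 and 6338 in Media+DMSO. Arrays with and without LPS did not overlap within either treatment. LPS gave -0.19 ± 0.07 (limma adjusted p = 0.0495) in Fraction cells, -0.10 ± 0.07 (adjusted p = 0.372) in 4CS cells and -0.27 ± 0.07 (adjusted p = 0.00772) in Media+DMSO cells. With median centring neither call held (-0.03 in Fraction and -0.14 in Media+DMSO cells, adjusted p = 0.856 and 0.23). The call in Fraction cells was lost under 12 of 17 alternatives. The other probe set of Qdpr, in the fit of all kept probe sets, gave LPS differences of -0.32, -0.09 and -0.34 ± 0.11 in Fraction, 4CS and Media+DMSO cells. Those in Fraction and Media+DMSO cells were called (limma adjusted p = 0.0358 and 0.0291), and that in 4CS cells was not (adjusted p = 0.633).

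Odc1, ornithine decarboxylase, lay among the brightest probe sets of every array. Its signal was 27649.9, 22325 and 26560.0 in Fraction+LPS, 26729, 25896 and 26992 in 4CS+LPS, and 24002, 24090.1 and 22101 in Media+DMSO+LPS. Without LPS it was 17623, 19722 and 20549 in Fraction, 19341, 21172 and 25333 in 4CS, and 15808, 18976 and 20038 in Media+DMSO. Within each treatment all arrays with LPS lay above those without. LPS raised Odc1 by 0.40 ± 0.10 (1.32-fold, limma adjusted p = 0.00435) in Fraction cells, 0.28 ± 0.10 (1.22-fold, adjusted p = 0.0499) in 4CS cells and 0.36 ± 0.10 (1.29-fold, adjusted p = 0.0102) in Media+DMSO cells. In Fraction cells the call was lost without the 6 arrays numbered 1 (0.27, adjusted p = 0.0507). In Media+DMSO cells it was lost when the first Media+DMSO array was left out (0.26, adjusted p = 0.0703), and also without the 6 arrays numbered 1. The call in 4CS cells was lost under 10 of 17 alternatives, at adjusted p up to 0.225, without the first 4CS array.

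In the fit of all kept probe sets, the remaining probe set of Odc1 gave LPS differences of 0.60, 0.29 and 0.40 in Fraction, 4CS and Media+DMSO cells. It was not called in 4CS cells (limma adjusted p = 0.0862). Another of the 3 probe sets of Odc1 gave larger LPS differences of 1.37, 0.98 and 0.95 ± 0.14 in the same order. All were called (limma adjusted p = 2.89e-07, 3.36e-05 and 3.66e-05). Its signal was 23395, 19336 and 22986 in Fraction+LPS and 20588, 22676 and 20041 in Media+DMSO+LPS, against 8216, 9143 and 7955 in Fraction and 7992, 13070.4 and 12542 in Media+DMSO. It was also lower with the Fraction without LPS (-0.38 ± 0.14, limma adjusted p = 0.0497), a difference that the brightest probe set did not show (0.08, interval -0.13 to 0.30). The Fraction and Media+DMSO arrays without LPS overlapped on it.

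For 4CS against Media+DMSO no gene of the set was called by limma, with or without LPS, and neither was any of the 11547 tested genes (0% in both). At an unadjusted p under 0.05, 3 of the 7 genes passed without LPS (Slc7a2, Odc1 and Gch1) and 1 with it (Spr), where 4.89% and 8.09% of all genes did. The 3 arrays of each group did not overlap for 1 of the 7 genes without LPS (8.31% of all tested genes) and for 4 of the 7 with LPS (12.6%). With LPS, Slc7a2 was lower in all 3 4CS arrays and Odc1, Spr and Qdpr were higher, by 0.18, 0.36 and 0.13 on the log2 scale, at adjusted p = 0.589 to 0.834 by limma. Without LPS, Gch1 was 1696, 1869 and 1665 in 4CS against 1458, 1426 and 1449.7 in Media+DMSO, so the arrays did not overlap, and the difference was 0.27 ± 0.13 (limma adjusted p = 0.999). With LPS the difference was -0.20 (interval -0.47 to 0.07, adjusted p = 0.701). Without the first Media+DMSO+LPS array it was -0.42 and called (adjusted p = 0.025). The interaction of 4CS with LPS on Gch1 was -0.47 ± 0.18 (adjusted p = 0.999), and -0.69 without that array (adjusted p = 0.0299). In that interaction no gene was called (0%), and 1 of the 7 passed at an unadjusted p under 0.05, where 3.57% of all genes did.

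Fraction cells were also higher than 4CS cells in Arg2 and Gch1, in comparisons that share the Fraction arrays with those against Media+DMSO. These 2 of the 7 genes were called in both LPS states, where 32.4% of all tested genes were called without LPS (17% higher, 15.4% lower) and 28.2% with it (12% higher, 16.2% lower). Gch1 was higher in Fraction cells by 1.59 ± 0.13 (3.01-fold, limma adjusted p = 1.8e-08) without LPS and by 0.98 ± 0.13 (1.98-fold, adjusted p = 1.14e-05) with it. Arg2 differed by 1.47 ± 0.32 (a bound of 1.45-fold, limma adjusted p = 0.00128) without LPS, a call lost when low signals were set to the array median (0.54, adjusted p = 0.0658), and with LPS by 1.70 ± 0.32 (3.24-fold, adjusted p = 4.57e-04). Nos2 differed by 1.44 (adjusted p = 0.0552) without LPS and by 0.28 (adjusted p = 0.76) with it. The Nos2 value without LPS leaned on the third 4CS array, without which it was 0.51 (adjusted p = 0.402). It was called without the first or the second 4CS array (1.76 and 2.04, adjusted p = 0.039 and 0.0104) or the third Fraction array (1.80, adjusted p = 0.0326). Slc7a2 with LPS differed by 1.68 (3.21-fold, adjusted p = 0.166) with no overlap of the arrays, and was called when only the compared groups were fitted (adjusted p = 5.19e-04).

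The order of the 6 groups differed between genes. For Gch1 it ran Fraction+LPS, Fraction, Media+DMSO+LPS, 4CS+LPS, 4CS and Media+DMSO, and among these neighbours Media+DMSO+LPS and 4CS+LPS alone overlapped. For Arg2, Media+DMSO+LPS, Fraction and 4CS+LPS overlapped below Fraction+LPS, and 4CS and Media+DMSO overlapped at the bottom. Over the 18 arrays, which share groups and arrays between genes, Arg2 and Gch1 had the highest correlation within the set (r = 0.93), and Nos2 had r = 0.75 with Arg2 and 0.69 with Gch1. The 3 tested genes most like Gch1 by this measure were Nupr1 (r = 0.983), Atf3 (0.973) and Chac1 (0.969). Those most like Arg2 were Lcn2 (0.966), Lcp2 (0.956) and Plek (0.952), those most like Nos2 were Exoc3l4 (0.954), Riok3 (0.945) and Hdc (0.945), and those most like Slc7a2 were Agpat4 (0.937), Ltb (0.933) and Mmp13 (0.932).

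A list of 44 further genes of arginine transport, citrulline recycling, nitric oxide regulation, ornithine and polyamine metabolism, biopterin synthesis and other uses of arginine had 31 tested members. With the Fraction, 8 rose and 5 fell without LPS and 6 rose and 5 fell with LPS against Media+DMSO, a median difference of 0.06 and 0.08 beside 0.02 and -0.02 over all tested genes. The share called, 41.9% without LPS and 35.5% with it, stood beside 31.2% and 23.8% of all tested genes. With LPS, 5 rose and 8 fell in Fraction cells, 5 and 5 in 4CS cells and 5 and 6 in Media+DMSO cells. The shares called, 41.9%, 32.3% and 35.5%, stood beside 37.3%, 24.6% and 31.9% of all tested genes. With median centring these LPS counts became 11 and 3, 6 and 2, and 6 and 4, and the Fraction counts 7 and 7 without LPS and 5 and 5 with it. No list member was called for 4CS against Media+DMSO or in either interaction by limma.

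Among these lists, arginine transport held the gene with the largest called Fraction difference, Slc7a7. Of its 5 tested members 3 rose and 1 fell with the Fraction in both LPS states, counts that median centring left as they were, where 31.2% of all tested genes were called without LPS and 23.8% with it. Slc7a7, the light chain of a transporter that exchanges cationic amino acids, averaged 398 in Fraction+LPS and 115 in Media+DMSO+LPS, and 395 in Fraction and 86.6 in Media+DMSO (geometric means, n = 3 arrays each). It rose with the Fraction by 2.19 ± 0.27 (4.56-fold, limma adjusted p = 4.2e-06) without LPS and 1.79 ± 0.27 (3.45-fold, adjusted p = 7.26e-05) with it. Slc7a1, the constitutive transporter CAT1, rose by 1.14 ± 0.08 (2.20-fold) and 1.16 ± 0.08 (2.24-fold), and Slc3a2, the heavy chain that pairs with Slc7a7, rose by 1.23 ± 0.07 (2.35-fold) and 1.01 ± 0.07 (2.01-fold). Slc7a6, another light chain, fell by 0.41 and 0.27 on the log2 scale. Slc7a3, a further cationic transporter, rose with LPS by at least 1.71-fold in Media+DMSO cells (limma adjusted p = 0.00404) and by 1.93-fold in Fraction cells (adjusted p = 0.017). In 4CS cells its LPS difference of 0.78 was not called (adjusted p = 0.0659), though it was with median centring (0.87, adjusted p = 0.0447). Its signal was low, on average 40.9 in Media+DMSO and 94.9 in Media+DMSO+LPS, beside array medians of 52.1 to 66.8.

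**Figure D4:**
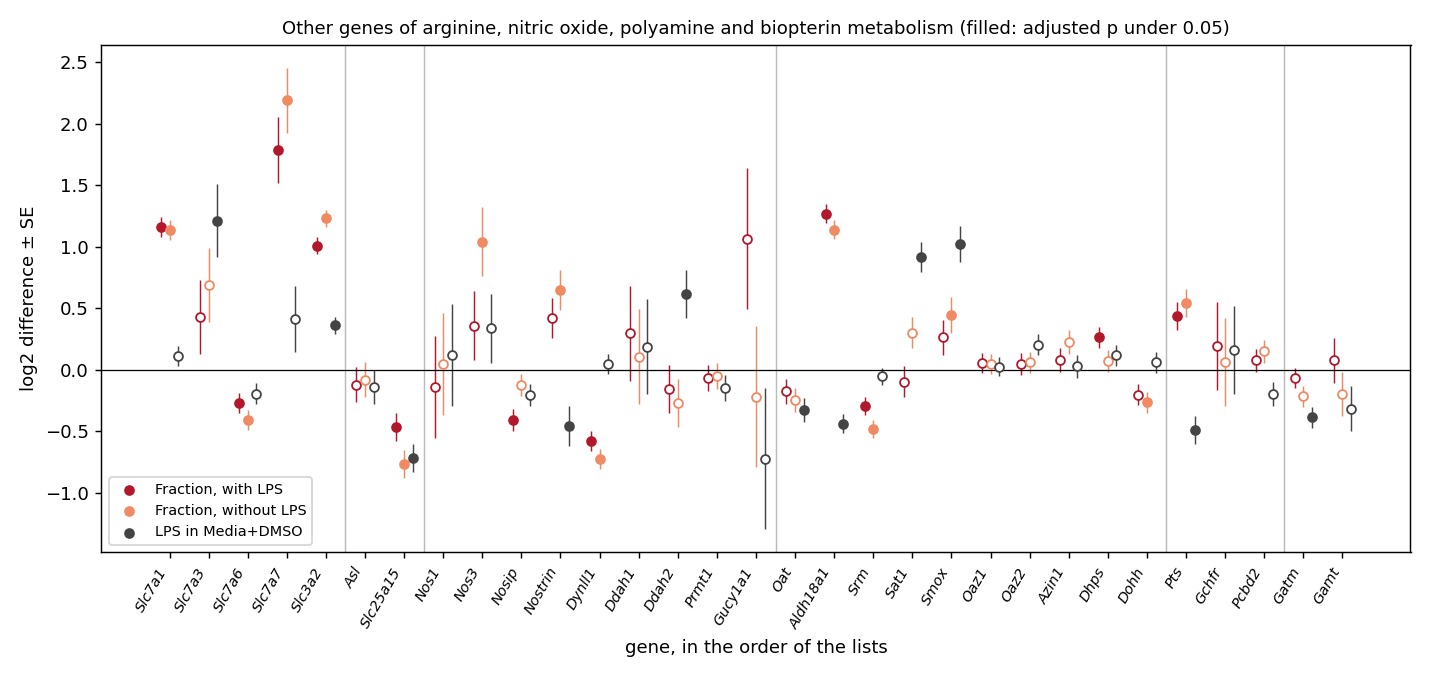
Log2 differences of the tested genes of the arginine, nitric oxide, polyamine and biopterin lists in 3 comparisons, with lines for the standard error and filled points for calls. Slc7a7 (2.19 and 1.79), Slc3a2 (1.23 and 1.01), Slc7a1 (1.14 and 1.16) and Aldh18a1 (1.14 and 1.27) have the largest called rises with the Fraction, without and with LPS.

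Beyond arginine, Aldh18a1, which makes the precursor of proline and ornithine from glutamate, averaged 7014 in Fraction+LPS and 2913 in Media+DMSO+LPS, and 8688 in Fraction and 3948 in Media+DMSO. It rose with the Fraction by 1.14 ± 0.08 (2.20-fold) without LPS and 1.27 ± 0.08 (2.41-fold) with it, and fell with LPS in Media+DMSO cells by 0.44 on the log2 scale. Slc25a15, the mitochondrial ornithine carrier, fell with the Fraction by 0.77 and 0.47, and Srm, spermidine synthase, by 0.48 and 0.30. Of the polyamine catabolic enzymes, Smox, spermine oxidase, and Sat1, spermidine/spermine N1-acetyltransferase, rose with LPS in Media+DMSO cells by 1.02 ± 0.14 and 0.92 ± 0.12. Pts, which acts between Gch1 and Spr in biopterin synthesis, was called in the opposite direction to Gch1 with LPS (-0.59, -0.39 and -0.49 ± 0.11 in Fraction, 4CS and Media+DMSO cells) and in the same direction with the Fraction (0.54 and 0.44). With median centring its LPS call in 4CS cells was lost (-0.30, adjusted p = 0.0678). Dynll1, a dynein light chain that binds neuronal nitric oxide synthase, fell with the Fraction by 0.72 without LPS and 0.58 with it. Nos3, the endothelial synthase, averaged 153 in Fraction and 74.4 in Media+DMSO cells, a rise of 1.04 ± 0.28 (2.06-fold, limma adjusted p = 0.00775), and was not called with LPS. The Media+DMSO average lay close to the array medians (52.1 to 66.8), and 4CS cells without LPS averaged 108. Fraction exceeded 4CS in Nos3 by 0.50 without LPS (limma adjusted p = 0.19) and by 0.84 with it (adjusted p = 0.0309).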

How the data were processed

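Total RNA was labelled with biotin and hybridized to Affymetrix mouse arrays. The authors deposited linear intensity values of 45101 probe sets, made with MAS5 per the submitters' processing notes, and the 2% trimmed mean of every array was 500.0. Left out were 64 control probe sets. A single gene symbol was given for 34945 of the rest, several for 932 and none for 9160, and symbols were updated through Entrez IDs to RefSeq GRCm38.p6. Values below 1 (0.824%) were raised to 1 before log2 was taken.

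Probe sets at or above the array median on at least 3 arrays were kept (25612, of which 21553 had 1 symbol), and the brightest stood for its gene. A linear model of 6 group means was fitted to 11547 genes in R 4.3.3 by limma 3.58.1 (eBayes trended on intensity, 12 residual degrees of freedom, 11 contrasts, two-sided). Intervals are 95% intervals of the fit. The same code was tested on simulated data in which 200 genes differed.

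The genes and lists were chosen with earlier results of these data known. All genes of the set are named, beside the 3 genes most correlated with Gch1, Arg2, Nos2 and Slc7a2 and some of the list members with calls. Alternatives were other normalizations, filters, pseudocounts, a replicate block, fewer arrays and each array left out. The number of arrays limits the precision, and detection calls were not used here.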

Additional observations from a re-analysis of the deposited data

Results flagged for a closer look

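The LPS difference of Gch1 differed between Fraction and Media+DMSO cells by a test of the difference itself. LPS raised the signal by 0.39 in Fraction cells and by 1.46 in Media+DMSO cells, a difference of -1.08 ± 0.18 on the log2 scale (limma adjusted p = 0.00291). All 3 Fraction arrays without LPS, at 4876 to 5862, lay above the 3 Media+DMSO+LPS arrays, at 2957 to 4742. Over the 23 alternatives run, the interaction ranged between -1.34 and -0.95 with adjusted p between 5.15e-06 and 0.0206.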

How the results depend on the processing

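Over the 77 pairs of tested gene and comparison, 1360 alternative values were computed. No called value changed sign, 39 lost their call and 16 gained one. The number of genes of the set called for LPS in 4CS cells, 5, became 3 with a 75th percentile filter, 2 with signals under the array median set to it and 3 without the 6 arrays numbered 1. With the 75th percentile filter, under which fewer of the genes were tested, the count of 2 became 1 for the Fraction against Media+DMSO and against 4CS, in both LPS states. It was also 1 for the Fraction against Media+DMSO with LPS without the 6 arrays numbered 1, and 1 for the Fraction against 4CS without LPS with signals under the median set to it. The cause of the other shifts was not tested. The alternatives with low signals set to the median or without the arrays numbered 1 were added after seeing the data.

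Replicate numbers were checked for pairing. Deviations of arrays with the same number correlated at 0.02 to 0.17 (median 0.09, 9 of 45 pairs over 0.1), against a median of -0.04 for different numbers. In all, 18 of 18 arrays correlated best with their own number. Arrays with the same number thus shared some of their spread, though what they share is not in the labels. Since the correlations were low, the main fit did not treat the numbers as pairs, and its p-values leave this shared part in the spread. With a replicate block the count for the Fraction against 4CS without LPS was 4 in place of 2, as Nos2 and Slc7a2 joined (1.44 and 2.18, adjusted p = 0.0139 and 0.034), and the block changed no other call of the genes.

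Leaving out each array in turn gave 4 to 5 called genes for LPS in Fraction cells, 3 to 5 in 4CS cells and 4 to 6 in Media+DMSO cells. For the Fraction against Media+DMSO it gave 2 to 2 without LPS and 1 to 2 with LPS, and against 4CS 2 to 3 without LPS and 2 to 2 with it. For 4CS against Media+DMSO it gave 0 to 0 without LPS and 0 to 1 with LPS, and for the interactions 1 to 1 with the Fraction and 0 to 1 with 4CS.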
